A study of Macaca mulatta with 39 samples.

Results

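The homeobox and paired patterning factors of this comparison are the transcription factors whose gene symbols begin with PAX, LHX, IRX, DLX, MSX, PITX, OTX, TLX, BARX, EN, GBX, VAX, POU or NKX, or with the sine oculis prefix (as in SIX5), and end in the member's number. PAX6 and POU5F1 were set aside by the same rule. The probe annotation of the array named 48 such genes in 14 families, out of 14132 genes with a probe set of their own. Each gene was read from 1 probe set, the one with the highest mean signal over all arrays, and 20 of the 48 had more than 1 probe set. The rule itself used no measured difference, but it was chosen with earlier results of these data known.

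Messenger RNA was measured on 39 single-colour arrays of cultured rhesus macaque (Macaca mulatta) cells, of which 36 were used. Pluripotent cells were 2 embryonic stem cell (ESC) lines from pedigreed animals, the female line C3806 and the male line C3106. Teratoma fibroblasts were grown out of the mixed-tissue tumours that the same lines form in immune-deficient mice, with 3 cultures of line 3806 (TA38, TB38 and TC38) and 5 of line 3106 (TA31 to TE31). Skin fibroblasts came from 3 cultures of animals described as parents of the lines (M032, M088 and M106p1). Each source had 3 arrays before any were left out. Teratoma cultures carry the genome of their line, whereas skin cultures are only related to a line, and which line is not given. The labels name no genetic change or treatment and no animal age. Each ESC line is a single line, and a teratoma outgrowth can still hold cells of more than one kind. Whether mouse host cells remained in the cultures was not tested.

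A homeobox encodes the DNA-binding homeodomain, and PAX proteins bind DNA through a paired domain. Genes of these families are switched on in restricted regions of the embryo, where they set the identity of limb, face, eye, brain, gut or somite cells. Fibroblasts in culture can keep part of the positional gene expression of the tissue they came from. ESCs precede such regional patterning, so most of these factors are known from later stages.

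Arrays C3806c, M106p1f and TB31c were left out because their profiles went against their labels. For the 11 factors of widest range, C3806c lay on average 1.53 log2 units from the other C3806 arrays but 0.12 from TC38. Array M106p1f lay 0.45 from its labelled source and 0.11 from TD31, and TB31c lay 0.69 from its labelled source and 0.15 from M106p1. With the remaining arrays the labelled cell types held: pluripotent cell markers averaged 10.05 to 10.29 on the log2 scale in ESC lines, against 5.57 to 5.82 in teratoma fibroblasts and 5.49 to 5.59 in skin fibroblasts. Fibroblast markers averaged 7.26 to 7.28 in ESC lines, against 11.23 to 11.62 in teratoma and 11.36 to 11.51 in skin fibroblasts. Array medians of all probe sets lay between 6.25 and 6.48. The gap between the 3′ and 5′ probe sets of actin, a sign of RNA quality, had a median of 0.74 log2 units on ESC arrays, 0.17 on teratoma arrays and 0.27 on skin arrays, and the highest gap of 3.89 was on C3806a. These differences are log2 units, in which 1 is a 2-fold difference.

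Most of the 48 factors were flat and dim, and a small group moved widely. The 13 source means of a factor spanned at least 1 log2 unit for 11 of the 48, which is 22.9%, compared with 41.4% of all genes. The median span was 0.46 for the factors and 0.82 for all genes. The 11 were IRX5, MSX1, LHX8, IRX3, IRX1, POU2F1, DLX1, MSX2, PITX1, DLX5 and NKX3-2. In 23 factors, or 47.9%, the highest source mean exceeded 6.71, the 95th percentile of the mean signals of 674 probe sets for viruses on the same array; this held for 73.3% of all genes. A signal below that level may lie within background, so a flat value there says little about a gene, and a log2 difference from such a signal is one of measured signals that may understate the change in mRNA. Of the 11, NKX3-2 was at or under the level in all 13 sources, DLX5 in 12, PITX1 in 10, LHX8 and DLX1 in 9, IRX1 in 8 and IRX5 in 2, and MSX1, IRX3, POU2F1 and MSX2 were above it in every source.

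**Figure D1:**
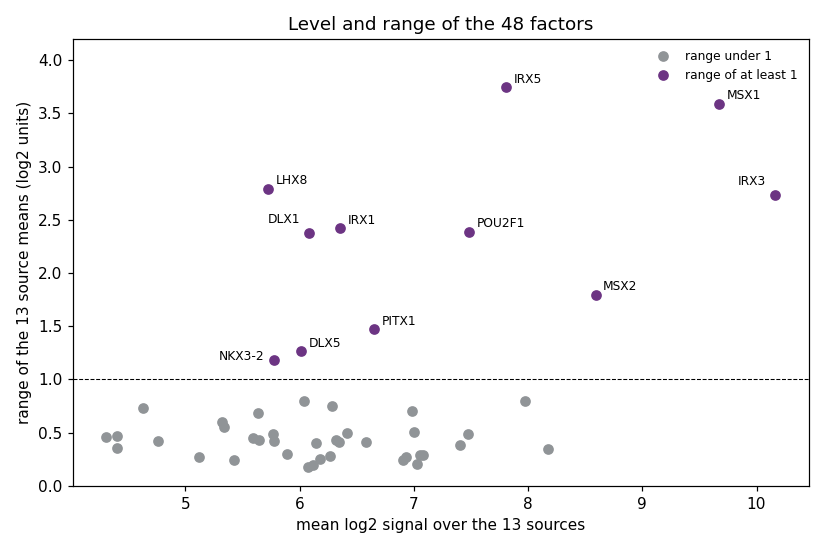
Each point is 1 of the 48 factors, with its mean log2 signal over the 13 sources on the horizontal axis and the range of its 13 source means in log2 units on the vertical axis; the dashed line marks a range of 1. The 11 named factors lie above the line, with IRX5 at 3.74 and NKX3-2 at 1.18, and the other 37 lie between 0.18 and 0.80.

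ESC lines were compared first with teratoma fibroblasts, which asks what differs between pluripotent and differentiated cells of the same genome. ESC lines had more POU2F1 mRNA and less IRX5, MSX1 and IRX3 mRNA than teratoma fibroblasts. These 4 factors are 8.33% of the 48, while 14.5% of all genes passed the same limits, 6.28% of them higher in ESC lines and 8.18% lower. A factor passed with a Benjamini-Hochberg adjusted p under 0.05 over all 14132 genes in limma and a log2 difference of at least 1. Set against skin fibroblasts, the same 4 factors passed, beside 20% of all genes (10.2% higher and 9.77% lower in ESC lines). Both comparisons share the ESC arrays, so they are not independent. The median difference of the 48 factors was -0.04 against teratoma and -0.05 against skin fibroblasts, and that of all genes was 0.02 and 0.03.

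POU2F1 (also called OCT1), a broadly expressed factor that binds the octamer motif, was the only one of the 48 to pass as higher in ESC lines. Its source means were 9.35 in C3806 and 9.09 in C3106. They were 7.13, 7.13 and 7.10 in TA38, TB38 and TC38, and 7.25, 7.28, 7.41, 7.27 and 6.98 in TA31 to TE31. Skin cultures M032, M088 and M106p1 had 6.96, 7.19 and 7.08. The 5 ESC arrays, at 8.81 to 9.46, lay above all 31 fibroblast arrays, of which the highest, TC31a, was at 7.64. The ESC mean was 9.22 ± 0.19 (SD, n = 2 lines), against 7.19 ± 0.13 (n = 8 cultures) in teratoma and 7.08 ± 0.11 (n = 3 cultures) in skin fibroblasts. The fitted difference was 2.04 (SE 0.10, limma adjusted p = 2.23e-07) from teratoma and 2.14 (SE 0.12, adjusted p = 5.21e-07) from skin fibroblasts.

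The Iroquois factors IRX3 and IRX5 help to pattern limb, heart and nervous tissue, and in the RefSeq gene order both lie on rhesus chromosome 20 with 2 protein-coding genes between them. IRX5 was at 5.61 in C3806 and 5.54 in C3106. Teratoma cultures had 7.69 in TA38, 7.86 in TB38, 8.01 in TC38, 7.75 in TA31, 8.09 in TB31, 8.56 in TC31, 8.30 in TD31 and 8.06 in TE31. Skin cultures had 9.28 in M032, 8.45 in M088 and 8.32 in M106p1. Both ESC means lay under the viral 95th percentile and all fibroblast means above it, with no overlap. The measured IRX5 difference was -2.43 (SE 0.25, adjusted p = 3.79e-05) from teratoma and -3.11 (SE 0.29, adjusted p = 1.92e-05) from skin fibroblasts, and its size may be understated because the ESC signals may be background.

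IRX3 was a bright gene in all sources. Its means were 8.53 in C3806 and 8.90 in C3106, against 9.78 to 10.84 (median 10.32) in the 8 teratoma cultures and 11.26, 10.46 and 10.57 in M032, M088 and M106p1. The lowest teratoma means, those of TA38 and TA31, still lay above both ESC lines. The difference was -1.59 (SE 0.32, adjusted p = 0.00278) from teratoma and -2.05 (SE 0.37, adjusted p = 0.00124) from skin fibroblasts. IRX6, which directly neighbours IRX5 in that gene order, was between 6.79 and 7.03 in all 13 sources.

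MSX1, a factor of undifferentiated mesenchyme with roles in tooth and palate development, followed the same direction. It was at 7.73 in C3806 and 8.00 in C3106. Cultures of line 3806 had 9.54, 10.37 and 10.66 in TA38, TB38 and TC38. Those of line 3106 had 9.50, 9.35, 8.96, 10.22 and 9.64 in TA31 to TE31, and skin cultures had 11.32, 10.14 and 10.28 in M032, M088 and M106p1. ESC and fibroblast means did not overlap, whereas teratoma and skin means did. The MSX1 difference was -1.995 (SE 0.39, adjusted p = 0.00239) from teratoma and -2.71 (SE 0.45, adjusted p = 0.000779) from skin fibroblasts.

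**Figure D2:**
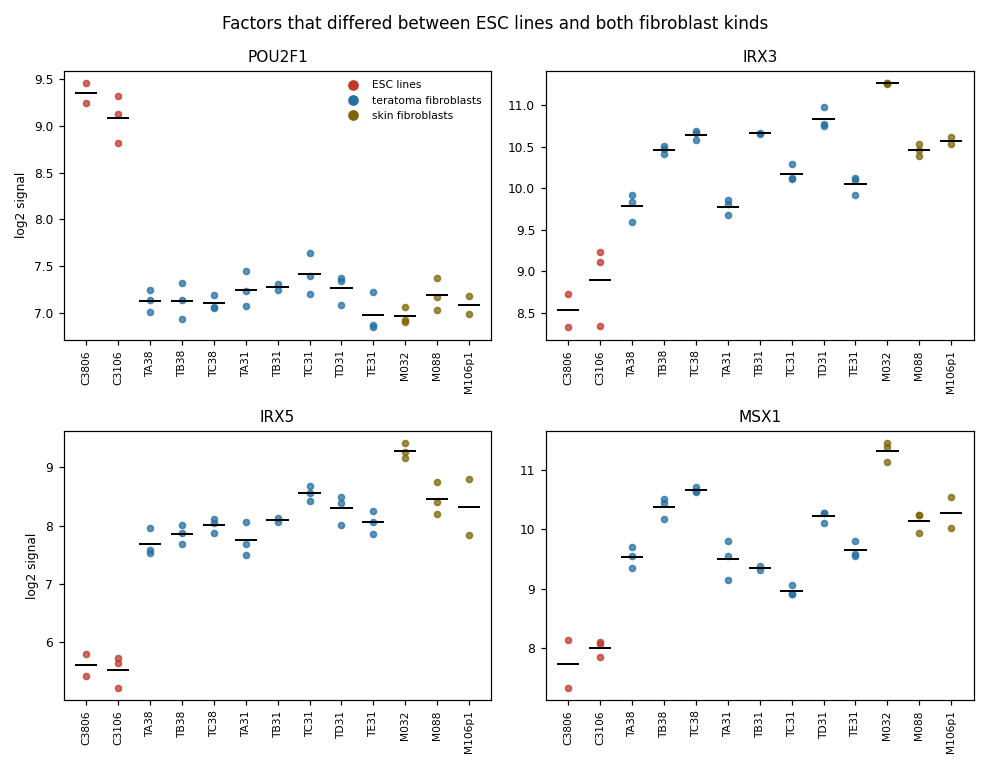
Log2 signal of POU2F1, IRX3, IRX5 and MSX1 on each of 36 arrays (points), by source, with a bar at each source mean; ESC lines are left, teratoma cultures in the middle and skin cultures right, and each panel has its own axis. POU2F1 sits at 9.09 and 9.35 in the ESC lines and at most 7.41 in the fibroblast means, and the other 3 factors are lower in ESC lines.

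With C3806a, the array of the wide actin gap, also left out, the differences from teratoma were 1.99 for POU2F1, -2.34 for IRX5, -1.79 for MSX1 and -1.49 for IRX3, and all 4 still passed against teratoma and against skin fibroblasts. In bulk RNA, fewer cells that make a transcript and less transcript per cell cannot be told apart. The ESC lines also differ from fibroblasts in 8 of 11 measured fibroblast markers, all lower in ESC lines, and in 8 of 10 pluripotent cell markers, all higher. Epithelial markers averaged 8.18 to 8.35 in ESC lines, 6.07 to 6.40 in teratoma and 6.06 to 6.28 in skin fibroblasts over 11 measured genes. The part of these differences in the results was not tested. With 1 source in each ESC class, the spread behind the tests came from the fibroblast cultures.

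Smaller differences passed on adjusted p alone. POU3F1 (OCT6), a POU factor of epiblast and Schwann cells, averaged 6.70 ± 0.30 in ESC lines, 6.21 ± 0.06 in teratoma and 6.19 ± 0.02 in skin fibroblasts (SD, n = 2, 8 and 3 sources). It was 0.48 above teratoma (adjusted p = 0.000115 in limma) and 0.51 above skin fibroblasts (adjusted p = 0.000186), under the fold limit. Its source means lay at or under the viral 95th percentile in all sources but C3806, so these are differences from signals that may be background. SIX5, the sine oculis gene beside DMPK in human, was 0.40 above teratoma (adjusted p = 0.0492) and 0.59 above skin fibroblasts (adjusted p = 0.0158). Its highest ESC value, 8.84, was on C3806a, the array of the wide actin gap, and C3806b had 8.01. The ESC arrays, at 7.93 to 8.84, overlapped the teratoma arrays, at 7.43 to 8.61. On a dimmer SIX5 set, under the viral 95th percentile in all sources, the differences were 0.04 and 0.07. VAX2, a factor of the ventral retina, was at 6.79 and 6.70 in C3806 and C3106, 6.84 to 7.07 in teratoma cultures and 7.25 to 7.40 in skin cultures. Its difference from skin was -0.59 for ESC lines (adjusted p = 0.000382) and -0.43 for teratoma fibroblasts (adjusted p = 0.0117), both by limma. LHX8 had the fourth largest mean difference from teratoma, -1.66, but its SE of 0.78 left an adjusted p of 0.122. IRX1 differed by -1.26 between ESC lines and skin fibroblasts (SE 0.53, adjusted p = 0.0815).

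**Figure D3:**
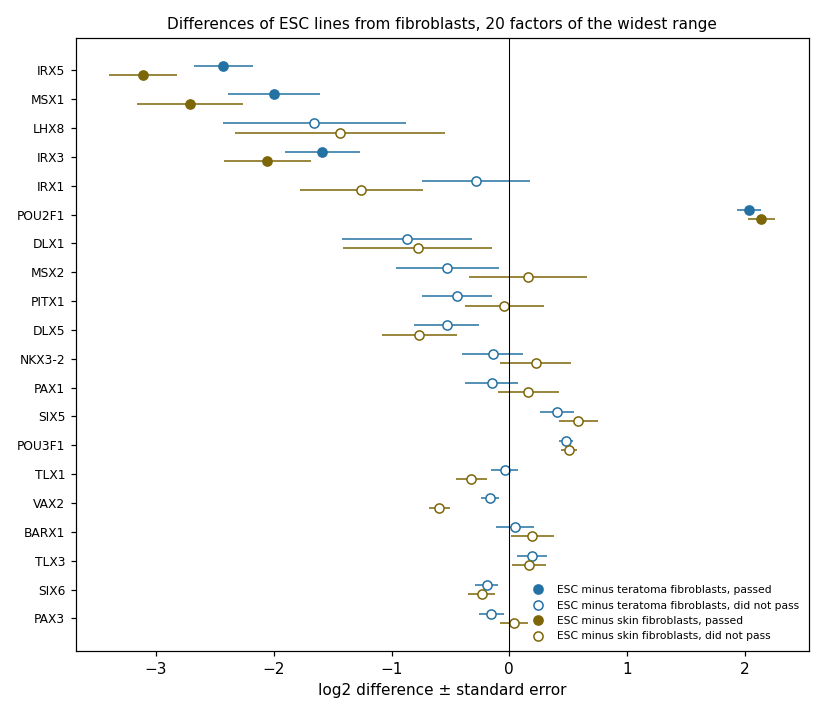
Fitted log2 difference of ESC lines from teratoma fibroblasts (blue) and from skin fibroblasts (ochre), with bars of 1 standard error, for the 20 factors of widest range; filled points passed the adjusted p and the fold limit. Filled points are those of IRX5, MSX1, IRX3 and POU2F1, and the open points of LHX8 and DLX1 have wide bars.

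Teratoma and skin fibroblasts as classes did not differ in any of the 48 factors by these limits in limma, while 1.2% of all genes passed. At an unadjusted p under 0.05 there were 6 factors, and the share of all genes at that p was not counted. The differences that came nearest in size were IRX1 at -0.98 (SE 0.39, adjusted p = 0.174), MSX1 at -0.72 (SE 0.34, adjusted p = 0.235), MSX2 at 0.69 (SE 0.37, adjusted p = 0.314) and IRX5 at -0.68 (SE 0.21, adjusted p = 0.0972). Source means of teratoma cultures lay wholly above or wholly below those of skin for 4.17% of the factors and 7.59% of all genes. A p above the limit does not show that the classes were alike, since cultures within a class varied widely.

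The lines were also compared. Teratoma fibroblasts of line 3806 and line 3106 differed by both limits in none of the 48 factors, against 0.0425% of all genes. The difference between ESC and teratoma cells depended on the line in none of them, against 0.0566% of all genes. ESC line C3806 against C3106, tested over arrays, gave none past both limits, against 1.08% of all genes. At an unadjusted p under 0.05 there were 1, 2 and 5 factors in these tests. The share of all genes at that p was not counted, so those numbers have no share to be set against. NKX3-2 was at 6.20 and 5.89 on the C3806 arrays, against 5.32, 5.82 and 5.22 on the C3106 arrays, a difference of 0.59 (SE 0.17, limma adjusted p = 0.0273). POU3F1 differed by 0.42 (SE 0.10, adjusted p = 0.0124). Both stayed under the fold limit, and with 1 source a line this test covers only the spread between arrays of a source. The highest ESC values of NKX3-2 and POU3F1, 6.20 and 7.01, were both on C3806a, the array of the wide actin gap. NKX3-2 lay at or under the viral 95th percentile in all 13 sources and POU3F1 in 12.

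Within a class, individual cultures differed in several patterning factors, in line 3106 and skin cultures at shares close to those of all genes. Among the 5 cultures of line 3106, an F test in limma over arrays passed for 7 of the 48, or 14.6%, beside 11.6% of all genes (adjusted p under 0.05 and a span of culture means of at least 1). They were LHX8, DLX1, MSX2, IRX1, MSX1, NKX3-2 and IRX3. Among the 3 cultures of line 3806, 5 passed, or 10.4%, beside 5.09% of all genes: LHX8, MSX2, IRX1, PITX1 and MSX1. Among the 3 skin cultures, 4 passed, or 8.33%, beside 8.77% of all genes: LHX8, IRX1, MSX1 and DLX1. LHX8, IRX1 and MSX1 thus passed in all 3 groups of cultures, read on the brightest probe set of each factor. The share of all genes that passed in all 3 groups was not counted, so this overlap cannot be judged against other genes. These tests set cultures against the spread between arrays of a culture, which may be technical.

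LHX8, a LIM homeodomain factor of basal forebrain neurons, and in mouse of tooth mesenchyme, spread widest among the cultures. It was at 4.41 in C3806 and 4.29 in C3106. Line 3806 cultures had 5.50 in TA38, 4.95 in TB38 and 7.08 in TC38, and line 3106 cultures had 7.07, 6.75, 6.70, 5.77 and 4.53 in TA31 to TE31. Skin cultures had 5.84 in M032, 6.92 in M088 and 4.58 in M106p1. High and low cultures thus occurred in each fibroblast class, and TE31 and M106p1 were close to the ESC level. The span was 2.54 among line 3106 cultures (adjusted p = 1.06e-13), 2.13 among line 3806 cultures (1.25e-11) and 2.34 among skin cultures (2.15e-11).

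Members of the distal-less family, which pattern the jaw and the forebrain, varied in part. DLX1 was highest in TA31, with 7.32, 7.88 and 7.70 on its arrays. The other teratoma cultures had means of 6.81 in TA38, 6.17 in TB38, 6.83 in TC38, 5.42 in TB31, 6.09 in TC31, 5.25 in TD31 and 5.46 in TE31. ESC lines had 5.46 in C3806 and 5.38 in C3106, and skin cultures 6.76, 5.64 and 6.19. DLX1 spanned 2.38 among line 3106 cultures (adjusted p = 1.18e-14) and 1.12 among skin cultures (adjusted p = 3.12e-07), and 0.65 among line 3806 cultures. DLX5, a regulator of bone and face development, was at 5.51 and 5.47 in C3806 and C3106, 5.64 to 6.59 in teratoma cultures with TE31 and TA31 highest, and 6.74, 5.89 and 6.15 in skin cultures. Its spans of 0.95 in line 3106 and 0.85 in skin cultures had limma adjusted p of 3.06e-08 and 1.44e-06 but missed the fold limit. DLX3 and DLX4 each spanned at most 0.41 over the 13 sources.

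MSX2, a BMP-responsive factor of skull and limb mesenchyme, was high in TC38 at 9.84 and TA31 at 9.63, with TD31 at 9.05 and TC31 at 8.93. The remaining teratoma cultures lay between 8.06 and 8.46, beside 8.38 and 8.22 in C3806 and C3106 and 8.05 to 8.31 in skin cultures. The span was 1.39 in line 3106 (adjusted p = 1.07e-10) and 1.78 in line 3806 (adjusted p = 2.58e-13), against 0.27 in skin (adjusted p = 0.14). MSX1 and MSX2 did not share an order: M032 was highest for MSX1, at 11.32, but had 8.06 of MSX2.

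PITX1, a determinant of hindlimb identity and a factor of the pituitary, stood out in TA38, at 7.52, 7.79 and 8.19 on its 3 arrays. TB31 followed at 7.17 and 6.99 on its 2 arrays, and the other 6 teratoma cultures had means of 6.40 to 6.72. ESC lines were at 6.36 and 6.42 and skin cultures at 6.40, 6.41 and 6.49. IRX1 was highest in skin culture M032 at 7.93, with 6.84 in M088 and 6.74 in M106p1. Its teratoma means lay in a lower set of TA38 at 5.51, TB31 at 5.53, TD31 at 5.53 and TC31 at 5.91, and a higher set of TA31 at 6.40, TC38 at 6.59, TE31 at 6.83 and TB38 at 6.95. The ESC lines, at 5.99 and 5.84, lay beside the lower set. NKX3-2, a factor of axial and jaw cartilage, was highest in TA31, with 6.94, 6.06 and 6.62 on its arrays, against culture means of 5.40 to 5.73 in the others of line 3106 and 5.61 to 6.18 in line 3806.

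**Figure D4:**
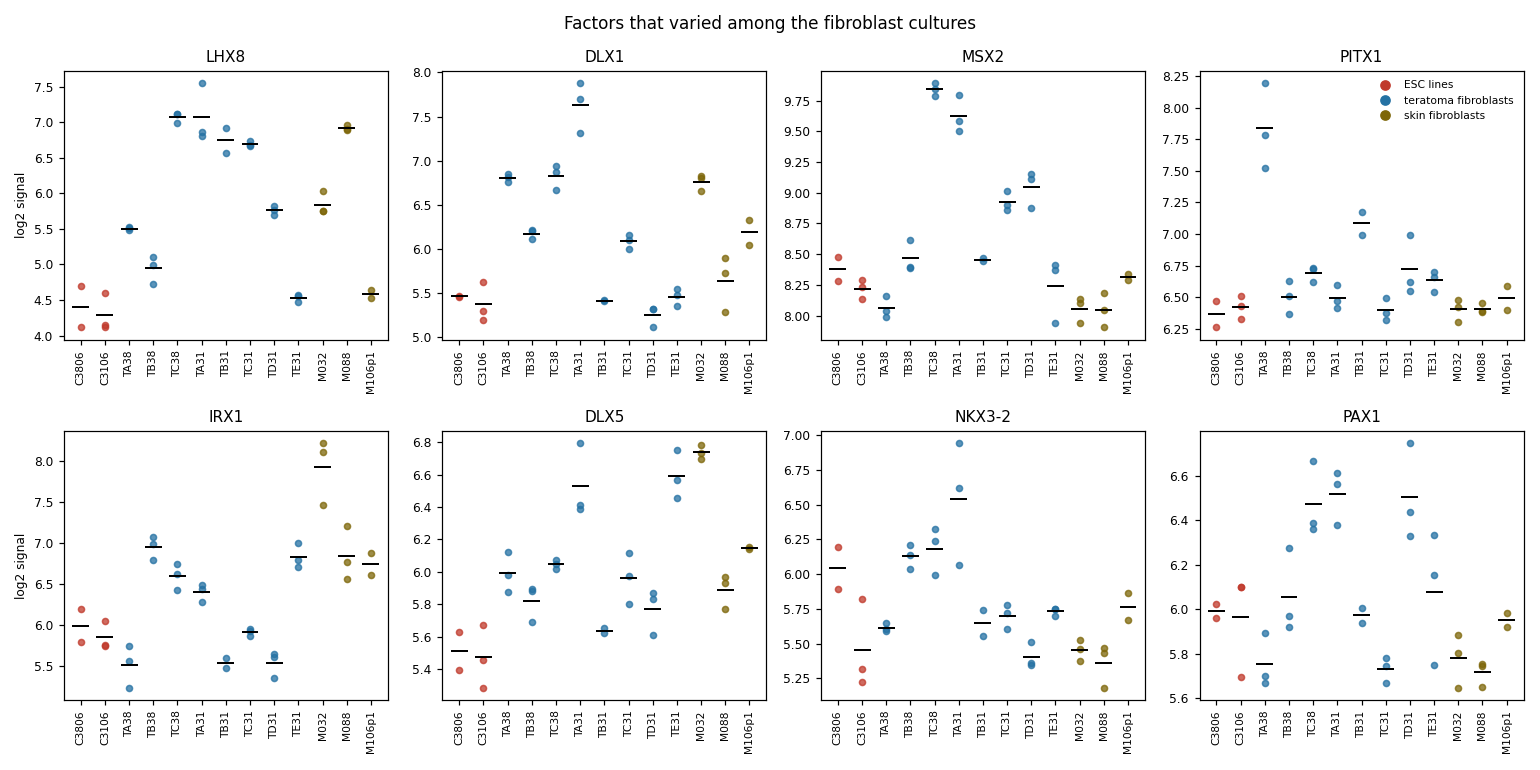
Log2 signal of 8 factors on each of 36 arrays (points), by source, with a bar at each source mean; red marks ESC lines, blue teratoma cultures and ochre skin cultures, and each panel has its own axis. PITX1 stands at 7.83 in TA38, DLX1 at 7.63 in TA31, and LHX8 takes high and low values within each fibroblast class.

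Each teratoma culture was then set against the mean of the other 7 in limma, read on the brightest probe set of each factor. TA38 was higher in PITX1 by 1.19 (SE 0.09, adjusted p = 3.03e-11), where 2.36% of all genes passed. TB38 was lower in LHX8 (-1.25, SE 0.12, adjusted p = 2.37e-09; 1.51% of all genes). TC38 was higher in LHX8 by 1.18, MSX2 by 1.15 and MSX1 by 1.01 (adjusted p at most 6.68e-07; 1.14% of all genes). TA31 was higher in DLX1 by 1.63 (SE 0.10, adjusted p = 5.4e-13) and in LHX8 by 1.18 (adjusted p = 1.03e-08), where 1.13% of all genes passed. TD31 was lower in DLX1 (-1.09, adjusted p = 7.32e-10; 3.43% of all genes) and TE31 in LHX8 (-1.73, adjusted p = 6.88e-13; 4.31% of all genes). No factor passed in TB31 (12 at an unadjusted p under 0.05; 1.67% of all genes) or TC31 (10 at an unadjusted p under 0.05; 1.83% of all genes). These contrasts share cultures and are not independent.

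Set against the mean of the skin cultures, the 8 cultures gave 16 passes in all on the brightest probe sets. The skin arrays were shared by every contrast. MSX1 was lower in TA38 (-1.04), TA31 (-1.08), TB31 (-1.23) and TC31 (-1.62). IRX1 was lower in TA38 (-1.66), TB31 (-1.64), TC31 (-1.27) and TD31 (-1.64). MSX2 was higher in TC38 by 1.70 and in TA31 by 1.49, and LHX8 was higher in TC38 by 1.29 and in TA31 by 1.29 but lower in TE31 (-1.25). PITX1 was higher in TA38 by 1.40, and the measured signals of DLX1 and NKX3-2 were higher in TA31 by 1.43 and 1.01. Only the MSX1 and MSX2 differences were free of signals under the viral 95th percentile. NKX3-2 lay under it in all sources, PITX1 in all skin cultures and DLX1 in skin cultures M088 and M106p1. IRX1 lay under it in TA38, TB31, TC31 and TD31, and LHX8 in TE31, M032 and M106p1. No factor passed in TB38, where 14 had an unadjusted p under 0.05, and the share of all genes at that p was not counted. All 16 had a limma adjusted p of at most 5.29e-07, and the share of all genes that passed was 4.75% in TA38, 6.22% in TB38, 6.64% in TC38, 6.05% in TA31, 6.31% in TB31, 5.7% in TC31, 7.95% in TD31 and 2.51% in TE31.

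Marker averages of other tissues also varied among the cultures. Skeletal muscle genes averaged 8.79 in TB31, 8.45 in TD31, 7.36 in TA38 and 7.22 in TB38 over 23 measured genes, and 6.09 to 6.54 in the other teratoma cultures, against 5.97 to 6.38 in skin. Against the other cultures, 16 of the 23 passed as higher in TB31 and 14 in TD31. Neural genes averaged 7.26 in TA38, 7.18 in TC38, 7.16 in TB38 and 7.08 in TA31 over 20 measured genes, and 6.52 to 6.80 in the other 4 teratoma cultures, against 6.28 to 6.44 in skin. Neural crest and glial genes averaged 7.11 to 7.38 in teratoma cultures, against 6.73 to 7.11 in skin, over 11 genes. Smooth and cardiac muscle genes averaged 8.31 in TE31, 8.07 in TA38 and 7.27 to 7.84 in the other teratoma cultures, against 7.89 to 8.49 in skin, over 14 measured genes. The part of these cell types in the values of the patterning factors was not tested.

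For some factors the brightest probe set moved least. PAX3, which marks early neural crest and muscle progenitors, was flat on its brightest probe set, with a range of 0.51 over the 13 sources. A second PAX3 probe set, chosen after its values were seen, had the widest range of any member probe set, 5.10. On it C3806 had 4.41 and C3106 had 4.17. TA38 had 4.93, TB38 had 9.13 and TC38 had 8.06, while TA31 to TE31 had 7.31, 4.75, 8.14, 6.79 and 7.23. Skin cultures had 4.04 in M032, 4.24 in M088 and 4.29 in M106p1. All 8 teratoma means lay above both ESC lines and all skin cultures, with TB31 and TA38 nearest to them. However, TB31, TA38, both ESC lines and all skin cultures lay under the viral 95th percentile of 6.71 on this set. Their order may therefore lie within background, and differences of the other teratoma cultures from ESC lines and skin are from signals that may be background.

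In a fit over all 24956 probe sets with 1 gene name, this PAX3 set differed by 4.20 among line 3806 cultures (limma adjusted p = 8.28e-17) and by 3.39 among line 3106 cultures (adjusted p = 4.75e-13). ESC lines were lower than teratoma fibroblasts (-2.82, SE 1.01, adjusted p = 0.0482). That call was lost with all 39 arrays under their labels (adjusted p = 0.152) and without any one of C3806, C3106, TB38, TC38, TA31, TC31, TD31, TE31, M032, M088 or M106p1 (adjusted p of 0.0621 to 0.163). It was kept without TB31 (adjusted p = 0.0205) or TA38 (adjusted p = 0.0053). Teratoma fibroblasts were 2.92 above skin (SE 0.86, adjusted p = 0.0878), past the limit when TA38 was left out (3.53, adjusted p = 0.0272) or the source was fitted as a random block (2.95, adjusted p = 4.1e-05). Over the 11 fibroblast sources the 4 PAX3 sets had pairwise Pearson correlations of 0.86 to 0.91, given as a description, although the other 3 ranged by at most 0.92 and the order of cultures differed between sets. TB38, the highest culture on this set, averaged 7.38 in neural crest and glial genes and 7.22 in skeletal muscle genes. TB31, the lowest, averaged 7.15 and 8.79, and TD31, at 6.79 on this set, averaged 7.16 and 8.45. The part of these cell types in the PAX3 values was not tested.

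Probe sets of MSX2, PITX1 and DLX1 also had unequal ranges. The 3 dimmer MSX2 sets ranged by 2.62, 4.29 and 3.99, against 1.80 on the brightest, and correlated with it at 0.89 to 0.96 over the 11 fibroblast sources. On the set of widest range TA31 had 9.23, TC38 9.18, TD31 8.26, TC31 8.12, TB31 7.17, TB38 6.52, TA38 5.68 and TE31 5.26, beside 4.94 and 5.04 in C3806 and C3106 and 5.33, 5.92 and 6.53 in skin cultures. Unlike the brightest, that set also passed among skin cultures, with a span of 1.20 (limma adjusted p = 5.29e-08). ESC lines differed from skin by 0.16 on the brightest MSX2 set and by -0.68 to -0.94 on the other 3. From teratoma fibroblasts they differed by -0.53 on the brightest and by -1.19 to -2.38 on the other 3 (limma adjusted p at least 0.0929). Teratoma differed from skin fibroblasts by 0.69 on the brightest and by 0.51 to 1.44 on the other 3 (limma adjusted p at least 0.324). A second PITX1 set followed the first at 0.99 and placed TA38 at 7.60, against 5.94 to 6.77 in the other teratoma cultures, while the remaining set had a correlation of -0.23 with the first and ranged by 0.53. The second DLX1 set ranged by 0.45. Of the 80 probe sets of the 48 factors, 5 passed for ESC against teratoma cells (1 each of POU2F1, IRX5, IRX3, MSX1 and PAX3), beside 14.6% of all probe sets. For ESC against skin cells 4 passed, without PAX3, beside 19.3% of all probe sets.

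**Figure D5:**
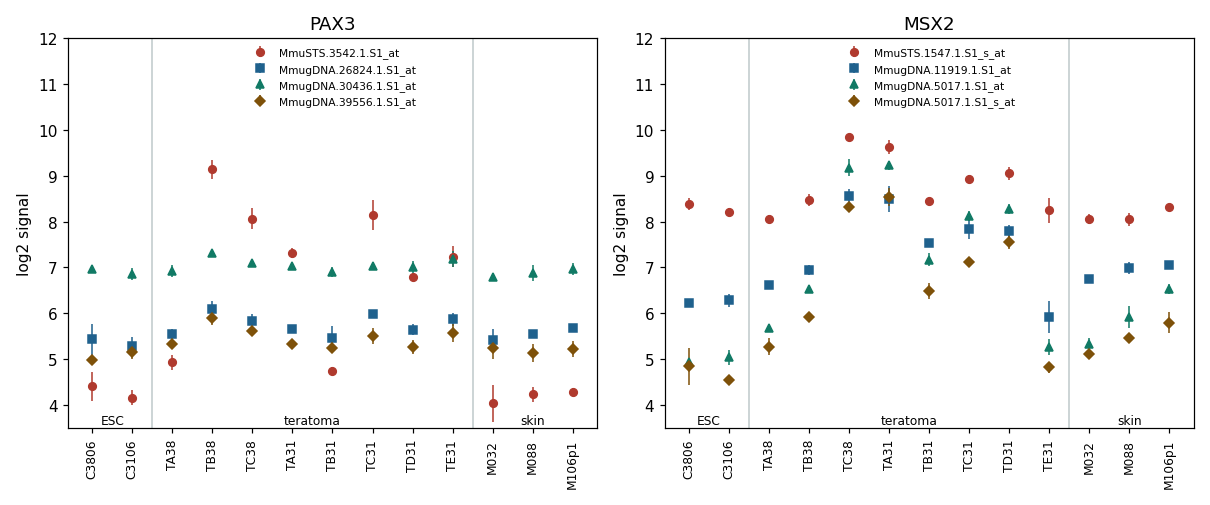
Source means in log2 signal of the 4 probe sets of PAX3 (left) and the 4 of MSX2 (right), with bars of 1 SD over the arrays of a source; grey lines part ESC lines, teratoma cultures and skin cultures. One PAX3 set runs from 4.04 in M032 to 9.13 in TB38 while the brightest stays between 6.79 and 7.30, and the MSX2 sets span 1.80 to 4.29.

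The other 37 factors ranged by 0.18 to 0.80 over the 13 sources on their brightest probe set, and the means of 26 of them lay at or under the viral 95th percentile. They include all 6 PAX genes, where PAX1, a factor of the sclerotome, ranged by 0.80, and the muscle stem cell factor PAX7 by 0.18. PAX1 was highest in TA31 at 6.52, TD31 at 6.50 and TC38 at 6.47, and its spans of 0.79 in line 3106 and 0.72 in line 3806 had limma adjusted p of 2.34e-05 and 0.000361, under the fold limit. The kidney factors PAX2 and PAX8 ranged by 0.42 and 0.35. They also include SIX5 at 0.80, SIX6 at 0.55 and SIX2 at 0.49, eye and craniofacial factors of the sine oculis family. So were all 3 TLX, both VAX and both BARX genes, with TLX1, a factor of spleen development, at 0.73, VAX2 at 0.70 and BARX1, a factor of stomach and tooth mesenchyme, at 0.69. The forebrain factors OTX1 and GBX1 ranged by 0.41 and 0.39. Of the LIM factors LHX1, LHX4, LHX5, LHX6 and LHX9, none ranged by more than 0.43 on its brightest set. A dimmer LHX9 set ranged by 1.18, with TB31 at 5.27 and TA38 at 5.12, all under the viral 95th percentile. In the fit over all probe sets it passed among line 3106 cultures (limma adjusted p = 2.49e-07). The NKX genes other than NKX3-2 ranged by 0.19 to 0.45, IRX4 by 0.48, and the POU genes other than POU2F1 by 0.25 to 0.75, among them the pituitary factor POU1F1 at 0.42 and the sensory neuron factors POU4F2 and POU4F3 at 0.47 and 0.25.

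Related homeobox factors outside the symbol rule included some with wide differences. Of 60 listed, 44 were measured, and 7 of them passed against teratoma and 6 against skin, beside the 14.5% and 20% of all genes. ESC lines were higher in 2, HESX1 (3.10, SE 0.08, adjusted p = 2.21e-09) and GSC (1.28, adjusted p = 0.000265), than teratoma fibroblasts. They were lower in 5: PRRX1 (-6.61), SHOX2 (-4.05), EMX2 (-3.30), PRRX2 (-1.87) and ISL2 (-1.14), with limma adjusted p of at most 0.00439. HESX1 acts in early forebrain and pituitary, and PRRX1 and SHOX2 are factors of limb and face mesenchyme. PRRX1 was at 4.40 and 4.27 in C3806 and C3106, 10.45 to 11.33 in teratoma and 11.29 to 12.33 in skin cultures. Against skin, 2 were higher (HESX1 and GSC) and 4 lower (PRRX1, SHOX2, EMX2 and PRRX2), and between teratoma and skin fibroblasts none passed. Their median difference from teratoma was 0 in ESC lines, close to that of all genes.

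The partners of these factors, among them EYA proteins that bind sine oculis factors and LDB and LMO proteins that bind LIM factors, were measured for 14 of 24 listed genes. SSBP4, which belongs to a family of LDB-binding proteins, was lower in ESC lines than in teratoma (-1.19, SE 0.23, adjusted p = 0.00196) and skin fibroblasts (-1.06, SE 0.26, adjusted p = 0.00775). The Groucho corepressor TLE1 was at 10.49 in C3806 and 10.40 in C3106, 9.20 to 9.54 in teratoma cultures and 7.67, 8.91 and 8.58 in skin cultures. It was higher in ESC lines than in skin by 2.06 (SE 0.28, adjusted p = 0.000219) and in teratoma than in skin fibroblasts by 1.07 (SE 0.21, adjusted p = 0.0277), and its ESC difference from teratoma of 0.98 was just under the fold limit (adjusted p = 0.00871). EYA4 was at 6.30 to 7.49 in 7 teratoma cultures and 4.50 in TE31, the culture lowest in LHX8, beside 4.45, 5.99 and 4.15 in skin cultures, and its class difference of 1.74 from skin did not pass (SE 0.60, adjusted p = 0.121).

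Some factors varied together over the 11 fibroblast sources, which share array processing and, in part, a genome. The correlation of source means was 0.73 for IRX5 with IRX3, 0.74 for MSX1 with IRX3 and 0.72 for MSX1 with IRX1. In the 8 teratoma cultures alone these were 0.46, 0.54 and 0.43. LHX8 with MSX2 had 0.54 over the 11 sources and 0.74 over the 8 cultures, and DLX1 with NKX3-2 had 0.66 and 0.79. These are descriptions without a test, and no shared control is implied by them.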

How the data were processed

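The authors deposited 1 table of log2 signals for 52865 probe sets on 39 Affymetrix arrays, made with GCOS and RMA per the submitters' processing notes; no version or setting is named there. RMA corrects background, aligns array distributions and summarises probes, which compresses differences of dim genes. The number of arrays and sources limits the precision. Gene names came from the platform annotation: 24956 probe sets had 1 gene name without being controls, 361 had several and 27535 had none. All 48 factors matched a RefSeq gene of the telomere-to-telomere assembly of the rhesus genome (MMU8v2.0), used for chromosomes and gene order only.

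Arrays of a source were averaged, and limma 3.58.1 in R 4.3.3 was fitted to the 13 source means in 5 classes (8 residual degrees of freedom) for class contrasts. Differences between ESC lines and among cultures were fitted to 36 arrays with 13 source groups (23 residual degrees of freedom). Tests were two-sided, with Benjamini-Hochberg adjustment over all 14132 genes. Named genes are the factors that passed a class contrast and the 20 of widest range. Sample letters did not pair the arrays: the median correlation of same-letter deviations was 0.05 (-0.54 to 0.60, 178 pairs), against -0.02 for other letters. Arrays of a source are labelled as biological triplicates, but separate cultures are not named, so p-values over arrays may reflect technical spread only. The fits were tested on simulated data. The factors and gene lists were chosen with earlier results of these data known.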

Additional observations from a re-analysis of the deposited data

Results flagged for a closer look

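A value was singled out where the highest or lowest culture of a class stood further from the next than Dixon's 95% limit allows, as a share of the class range. Of 40 sets of culture means tested, 2 met this, and chance gives about 1 in 20. NKX3-2 in TA31, at 6.54, was the highest of the 5 cultures of line 3106, with the next at 5.73, a gap of 0.71 of the range against a limit of 0.71. POU3F1 in TC38, at 6.33, was the highest of 8 teratoma cultures, with the next at 6.24, a gap of 0.54 of a range of only 0.18 log2 units.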

How the results depend on the processing

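The calls of POU2F1, IRX5, IRX3 and MSX1 against teratoma and skin fibroblasts kept their direction in every alternative run. They kept their side of the limits except under a limit of 2 on the log2 scale, which is 4-fold. That limit ended the calls of IRX3 (-1.59) and MSX1 (-1.995) against teratoma. Each of these 4 factors had only 1 probe set, so alternatives that change the probe set could not alter its signals and do not test these calls. Leaving out each array gave 4 factors in both comparisons, and leaving out each source likewise, with the highest adjusted p of 0.0355 for IRX3. Leaving out arrays gave 6 to 8 factors among line 3106 cultures, 5 among line 3806, 3 to 5 among skin cultures, 13 to 20 passes against skin and 2 to 3 in TC38. With the sample letter as a replicate block and the source as a random block, 1 factor passed for teratoma against skin fibroblasts, and no other count moved by over 1.5 times. With no limit on the log2 difference the counts were 7 against teratoma, 8 against skin, 1 for teratoma against skin, 2 between ESC lines, 16, 12 and 9 among line 3106, line 3806 and skin cultures, 91 for cultures against skin, and in cultures against the others 9 in TA38, TB38, TA31 and TD31, 11 in TC38, 7 in TB31, 5 in TC31 and 17 in TE31. With the log2 limit of 2 they were 2 against teratoma, 2, 1 and 1 among line 3106, line 3806 and skin cultures, and 0 for cultures against skin and for TA38, TB38, TC38, TA31, TD31 and TE31 against the others. With all 39 arrays TA31 had 1 and TB38 had 0. The mean over probe sets gave 0 in TD31 and 2 in TE31. The second brightest probe set gave 2 in TA38, TB38 and TE31, 1 in TB31 and TC31, and 0 in TD31. Counting any probe set, an alternative chosen after seeing the data, gave 3 in TA38 and TB38, 1 in TB31 and TC31, 2 in TE31, and 27 for cultures against skin. No share of all genes is set beside the counts of these alternatives. They show only how the counts depend on the settings, not how the factors compare with other genes. The PAX3 call of its widest probe set was added after its values were seen. The cause of these changes was not tested beyond the limits and probe sets themselves. Dim signals near the viral 95th percentile limit what can be said of 26 of the flat factors.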

Other observations

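The 3 arrays left out of the comparisons had these values. C3806c had 7.05 of POU2F1, 8.03 of IRX5, 10.72 of IRX3, 10.70 of MSX1 and 7.24 of LHX8. M106p1f had 5.79 of LHX8 and 5.49 of IRX1, against means of 4.58 and 6.74 on the other arrays of M106p1. TB31c had 4.65 of LHX8, 10.58 of MSX1 and 6.78 of IRX1, against means of 6.75, 9.35 and 5.53 on the other arrays of TB31. Among homeobox factors outside the symbol rule, MEOX2, a factor of somite and limb muscle development, took separate levels among the cultures: 9.10 in TD31, 8.51 in TC31, 8.48 in TB31 and 8.80 in skin culture M088, against 3.29 to 5.57 in the other teratoma cultures, 3.39 and 4.41 in M032 and M106p1, and 3.59 and 3.92 in C3806 and C3106. ISL1, a LIM factor of motor neurons and heart progenitors, was highest in TA38 at 8.86, with 7.16 in TE31 and 6.67 in TD31, against 4.56 to 5.66 in the other teratoma cultures and 4.38 to 4.47 in skin cultures. LMO2 was at 8.46 in TC31 and 7.03 in TD31, against 4.14 to 5.67 in the other teratoma cultures.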
